A study of Mus musculus with 10 samples.

Results

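The E2F family and its DP partners were examined in hematopoietic stem cells (HSCs) with and without *Cited2*. The members were taken by gene symbol and are the 8 E2F genes, *E2f1* to *E2f8*, together with *Tfdp1* and *Tfdp2*, which encode the DP partners, 10 of the 26146 genes in the count table. All 10 passed the filter on low counts (edgeR's filterByExpr) and were among the 14165 genes tested. RNA came from LSK CD48-CD150+ HSCs sorted from the bone marrow of C57BL/6J mice aged 8 to 12 weeks, with 1 mouse per library and polyadenylated RNA sequenced in bulk. Both groups were homozygous for floxed *Cited2*. The 5 controls (Cited2 CTL, labelled wildtype, here WT1 to WT5) carried no Cre, and the 5 others (Cited2 CKO, labelled knockout, here KO1 to KO5) carried *Vav-iCre*. *Vav-iCre* is active throughout the hematopoietic system and from the fetal stage on, so the deletion was confined neither to HSCs nor to adult life.

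Deposited counts summed to between 3058690 and 4548795 per library. *Cited2* was first examined as the deleted gene. It stood at 101 to 222 CPM (counts scaled to a normalized library size) in the WT libraries and at 3.80, 4.21, 5.00 and 8.30 CPM in KO1, KO2, KO4 and KO5. The library labelled KO3 had 120.1 CPM, within the WT range. It was kept under its label, and the genotype difference of each member is therefore given with and without it. All 15 HSC marker genes were counted in every library, with summed levels of 2874 to 3195 CPM in WT and 2546 to 2900 CPM in KO libraries. Of 7 B cell markers 5 stayed below 10 CPM in all libraries, as did 5 of 8 T and NK cell markers. In WT5 and KO5 the granule genes *Mpo*, *Elane* and *Ctsg* summed to 288 and 144 CPM, against 9.14 to 26.3 CPM in the other libraries. Not all of the 12 myeloid markers were raised there. *Prtn3*, another granule gene, had 129 and 120 CPM in WT5 and KO5, against 89.8 to 139 CPM in the others. *Lyz2* had 209 and 228 CPM, against 197 to 263 CPM. *Xist*, an RNA of female cells, had 1250 to 1316 CPM in WT2, WT4, KO2 and KO3. In the other libraries it had 1.61 to 19.7 CPM. The part of the sex of the mice in the levels of the members was not tested.

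E2F proteins control the entry into S phase. E2F1, E2F2 and E2F3 are the activators, which switch on genes for DNA replication once cyclin D and cyclin E kinases have released them from the retinoblastoma protein. E2F4 and E2F5 act mainly as repressors in quiescent cells, together with the pocket proteins p107 and p130 and, in the DREAM complex, with MuvB. E2F6 represses through Polycomb proteins without a pocket protein. The atypical E2F7 and E2F8 bind DNA without a DP partner, are themselves E2F targets and shut the S phase program down, whereas E2F1 to E2F6 need DP1 or DP2 (encoded by *Tfdp1* and *Tfdp2*) to bind DNA. Adult HSCs are mostly quiescent.

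The promoters of several members hold the letters to which E2F proteins are known to bind, and these stretches are shown because some E2F genes are themselves regulated by the family. RefSeq promoter windows of GRCm38.p6, from 250 bases before to 50 bases after the annotated start, were found for 8 of the 10 members (12 windows, all except *E2f4* and *E2f5*). The windows were searched on both strands for the letters TTCCCGC or the variant TTCGCGC or the variant TTGCCGC or the variant TTGGCGC as E2F motif, and for TTTGAA or its variant TTCGAA as CHR, the element bound by MuvB. The E2F motif occurred in 6 of the 12 windows and the CHR in 3, while among all 32851 promoter windows they occurred in 9.57% and 19.2%. The windows overlap for *Tfdp1*, so the same site is counted there in both of its windows. The stretches with the E2F motif are printed 5′ to 3′ on the strand of the gene, with the motif in capitals on either strand.
E2f7 (chr10:110745208-110745361, plus strand): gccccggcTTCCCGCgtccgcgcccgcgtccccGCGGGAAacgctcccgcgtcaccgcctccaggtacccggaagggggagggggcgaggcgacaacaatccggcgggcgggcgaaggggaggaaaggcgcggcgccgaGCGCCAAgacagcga
E2f3 (chr13:29986034-29986082, minus strand): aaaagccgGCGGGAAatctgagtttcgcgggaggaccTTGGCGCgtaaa
E2f8 (chr7:48881693-48881715, minus strand): ggcgcggaTTGGCGCgcggggcc
Tfdp1 (chr8:13338700-13338722, plus strand): cgccgaagGCGCGAAaaggcgcg
E2f2 (chr4:136172306-136172320, plus strand): catatagtTTGGCGC

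*E2f7* had 3 matches, all upstream of its start, the pair nearest to each other forming an inverted repeat of the same letters. *E2f3* had 2, one on each side of its start, and *E2f8*, *Tfdp1* and *E2f2* had 1 each. The CHR letters were found near the starts of *E2f3* and *E2f8* and in a second, internal window of *E2f2*. No E2F letters were found in the windows of *E2f1*, *E2f6* and *Tfdp2*. The *E2f1* window begins at a RefSeq start 466 bases inside the GENCODE gene and both *Tfdp2* windows begin at starts 62430 and 62973 bases inside that gene, so these windows do not cover the outer starts. For comparison, 26 of 40 windows (65%) of the genes listed as G1/S targets of E2F held the E2F motif, and 26 of 32 windows (81.2%) of the mitotic genes held the CHR.

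To compare levels between genes, CPM were divided by the deposited gene length (CPM per kilobase). Over the 10 libraries *Tfdp1* had the highest level, with a mean of 74.7 CPM per kilobase, above 90.2% of all tested genes. *E2f5* (43.04), *E2f6* (37.5), *E2f4* (33.9) and *Tfdp2* (31.3) followed, then *E2f1* (17.2), *E2f8* (13.04), *E2f3* (11.6), *E2f7* (6.08) and *E2f2* (1.86 CPM per kilobase, above 13.2% of tested genes). HSCs held more RNA per length of each of *E2f4*, *E2f5* and *E2f6* than of any activator on the mean. Only 3 steps in this order separated all libraries: every library of *Tfdp1* lay above every library of *E2f5*, every library of *Tfdp2* above every library of *E2f1*, and every library of *E2f7* above every library of *E2f2*. *E2f3* exceeded *E2f7* within each of the 10 libraries although their ranges overlapped. The remaining neighbours were not ordered the same way in every library, with *E2f5* above *E2f6* in 7, *E2f6* above *E2f4* in 8, *E2f4* above *Tfdp2* in 8, *E2f1* above *E2f8* in 8 and *E2f8* above *E2f3* in 6 of 10.

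**Figure D1:**
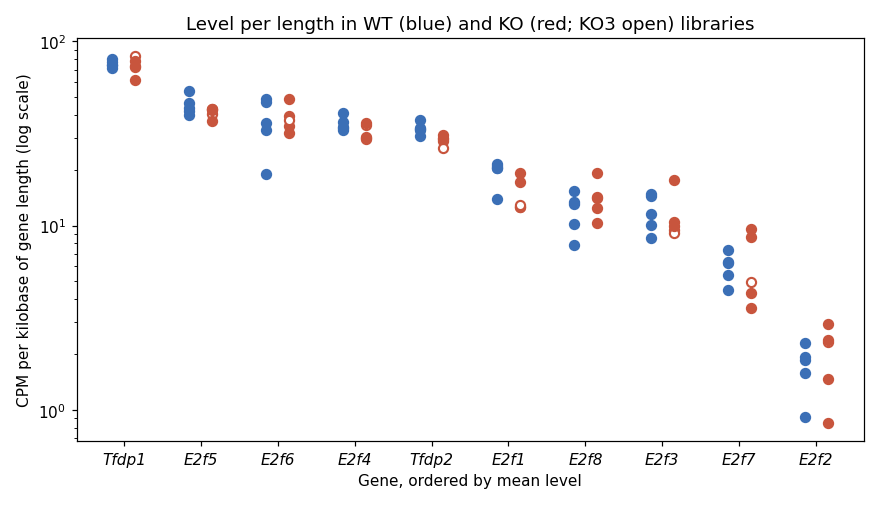
Level of each member in CPM per kilobase of gene length (log scale), with 1 point per library, WT in blue and KO in red, the library labelled KO3 as an open circle, and genes ordered by their mean over the 10 libraries. The points of *Tfdp1* lie above all others and those of *E2f2* below all others, while *E2f5*, *E2f6*, *E2f4* and *Tfdp2* overlap.

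The question of the genotype comparison was whether the factors that drive or restrain S phase entry change in amount when *Cited2* is deleted. A gene was called changed when its adjusted p was under 0.05 and its fold change above 20% (quasi-likelihood F test of edgeR, p adjusted over all tested genes by Benjamini and Hochberg). By this rule 0.226% of all tested genes were called, and 0.292% without the library labelled KO3. None of the 10 members was called in either fit or by DESeq2, in which 341 of 13371 genes were called. At an unadjusted p under 0.05 there were 2 members, *E2f1* and *Tfdp2*, against 12.9% of all genes tested, both lower in KO. The summed HSC markers were below all WT libraries in KO1, KO2 and KO3 and overlapped them in KO4 and KO5. The 7 multipotent progenitor markers summed to 758 to 827 CPM in WT, to 757 CPM in the library labelled KO3 and to 908 to 946 CPM in the other KO libraries, and of these genes *Cd48*, the marker against which the cells were sorted, had 14.4 to 27.4 CPM in WT and 38.5 to 60.8 CPM in KO. The part of these markers in the differences of the members was not tested. The WT and KO libraries of every member overlapped (0 of 10 apart, against 3.33% of all tested genes). In bulk RNA fewer cells with a transcript and less of it per cell cannot be told apart.

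**Figure D2:**
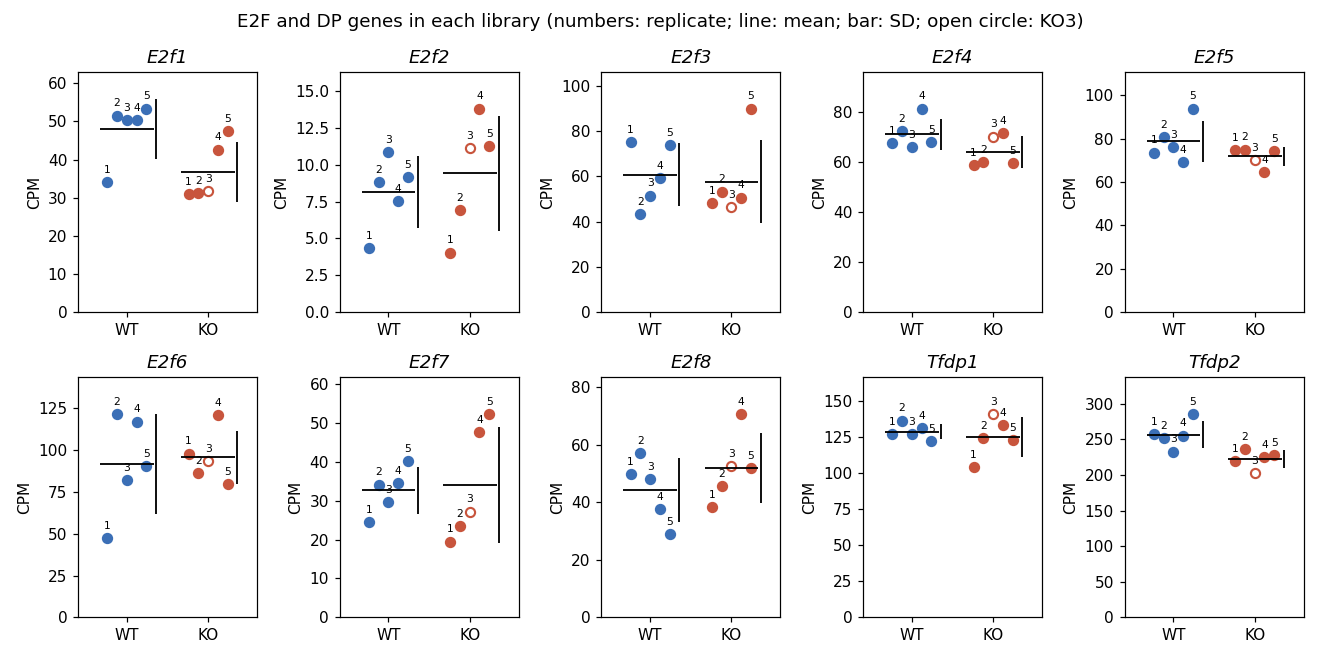
CPM of each member in each library, 1 panel per gene with its own axis from 0, WT in blue and KO in red, the number of the library above its point, the library labelled KO3 open, with the mean as a line and the SD as a bar. The genotypes overlap in all 10 panels, *E2f1* and *Tfdp2* have lower KO means, and *E2f7* spreads more widely in KO.

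Of the activators, *E2f1* (chromosome 2, 154559407 to 154569892) had 34.1, 51.5, 50.3, 50.5 and 53.4 CPM in WT1 to WT5 and 30.9, 31.2, 31.7, 42.6 and 47.5 CPM in KO1 to KO5. WT1 alone fell among the KO values, and the other 4 WT libraries lay above all 5 KO libraries. The means were 47.95 ± 7.84 and 36.8 ± 7.76 CPM (SD, n = 5 each), and KO differed from WT by -0.39 on the log2 scale (standard error 0.17, adjusted p = 0.365). Without the library labelled KO3 it was -0.34 (adjusted p = 0.523). *E2f1* is rich in G and C (58.3% of its transcript), and it differed by -0.16 once an offset for base composition (GC) and length was included (the GC offset).

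*E2f2* (chromosome 4, 136172394 to 136196057), the least abundant member with 13 to 49 counts per library, had 4.35, 8.84, 10.9, 7.56 and 9.19 CPM in WT1 to WT5 and 4.04, 6.93, 11.1, 13.8 and 11.3 CPM in KO1 to KO5. The lowest value of each genotype was in its library numbered 1, and the groups overlapped over most of their range. KO exceeded WT by 0.20 on the log2 scale (standard error 0.39, adjusted p = 0.868) and by 0.14 without the library labelled KO3. This value rested on single libraries, being 0.04 without WT1, 0.02 without KO4 and 0.39 without KO1, and it was 0.39 with the GC offset.

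*E2f3* (chromosome 13, 29906575 to 29986063) had 75.2, 43.5, 51.5, 59.2 and 73.7 CPM in WT1 to WT5 and 48.01, 53.2, 46.3, 50.6 and 89.9 CPM in KO1 to KO5. KO5 was far above the other KO libraries, which lay between 46.3 and 53.2 CPM, and in WT the highest were WT1 and WT5. WT5 and KO5 are the libraries with raised *Mpo*, *Elane* and *Ctsg*, whose part in the level of *E2f3* was not tested. For *E2f3* the log2 fold change was -0.07 (standard error 0.20, adjusted p = 0.916), 0.0017 without the library labelled KO3, -0.30 without KO5 and -0.22 without both libraries numbered 5, with adjusted p = 0.614 in the last.

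Of the repressors that act with pocket proteins, *E2f4* (chromosome 8, 105297663 to 105305370) had 67.6, 72.5, 65.9, 81.4 and 68.05 CPM in WT1 to WT5 and 58.95, 60.1, 70.2, 71.7 and 59.5 CPM in KO1 to KO5. KO1, KO2 and KO5 were below all WT libraries, and KO3 and KO4 were within the WT range. For *E2f4* it was -0.15 (standard error 0.11, adjusted p = 0.603), -0.19 without the library labelled KO3 and 0.04 with the GC offset. *E2f5* (chromosome 3, 14578641 to 14606309) had 73.6, 80.8, 76.1, 69.2 and 93.9 CPM in WT1 to WT5 and 74.9, 74.96, 70.2, 64.7 and 74.4 CPM in KO1 to KO5. All KO libraries except KO4 lay within the WT range. Its log2 fold change was -0.13 (standard error 0.10, adjusted p = 0.637) and -0.12 without the library labelled KO3.

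*E2f6* (chromosome 12, 16810963 to 16839742), the Polycomb-linked repressor, had 47.5, 122, 82.3, 117 and 90.4 CPM in WT1 to WT5 and 97.9, 86.1, 93.6, 121 and 79.7 CPM in KO1 to KO5. WT1 was the lowest library by far, and all KO libraries lay inside the WT range. The means were 91.8 ± 29.95 and 95.6 ± 15.7 CPM (SD, n = 5 each), with a log2 fold change of KO over WT of 0.05 (standard error 0.20, adjusted p = 0.941), 0.06 without the library labelled KO3 and -0.12 without WT1.

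Of the atypical repressors, *E2f7* (chromosome 10, 110745439 to 110787384) had 24.4, 34.1, 29.7, 34.6 and 40.3 CPM in WT1 to WT5 and 19.5, 23.5, 27.2, 47.6 and 52.3 CPM in KO1 to KO5. KO1 and KO2 were below and KO4 and KO5 above all WT libraries, so that the KO libraries lay on both sides of the WT range. The coefficient of variation was 18.2% in WT and 43.8% in KO, a difference in spread that was not tested. For *E2f7* the log2 fold change was 0.05 (standard error 0.26, adjusted p = 0.953), 0.13 without the library labelled KO3 and -0.17 without KO5. The part of the raised *Mpo*, *Elane* and *Ctsg* of WT5 and KO5, the highest library of each genotype, was not tested. *E2f8* (chromosome 7, 48866429 to 48881596) had 49.8, 57.1, 48.2, 37.8 and 28.9 CPM in WT1 to WT5 and 38.3, 45.8, 52.7, 70.85 and 52.1 CPM in KO1 to KO5. KO4 alone was above the WT range and no KO library was below it. KO exceeded WT by 0.23 on the log2 scale (standard error 0.20, adjusted p = 0.675) and 0.22 without the library labelled KO3.

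Exons of *E2f5*, *E2f7* and *E2f8* share 26, 86 and 610 bases with genes on the opposite strand (*1810022K09Rik*, *1700020G17Rik* and *Gm2788*). Whether the counting used strand is not given in the sources used here, so reads of these stretches may belong to either gene.

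Of the DP partners, *Tfdp1* (chromosome 8, 13338751 to 13378448) had 127, 136, 127, 131 and 122 CPM in WT1 to WT5 and 104, 124, 141, 134 and 123 CPM in KO1 to KO5. KO1 was the lowest and KO3 the highest of all, with the other libraries close together. The log2 fold change was -0.04 (standard error 0.09, adjusted p = 0.885) and -0.09 without the library labelled KO3. *Tfdp2* (chromosome 9, 96196275 to 96323646) had 258, 252, 233, 255 and 286 CPM in WT1 to WT5 and 219, 236, 202, 225 and 227 CPM in KO1 to KO5. Only KO2 and WT3 crossed, and the remaining 4 KO libraries lay below all WT libraries. *Tfdp2* had the smallest adjusted p of the members, with means of 257 ± 19.0 and 222 ± 12.5 CPM (SD, n = 5 each) and a log2 fold change of -0.21, with standard error 0.07 and adjusted p = 0.231. This was -0.18 without the library labelled KO3 (adjusted p = 0.346), -0.36 with the GC offset (adjusted p = 0.388), and -0.21 in DESeq2 (adjusted p = 0.0988).

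**Figure D3:**
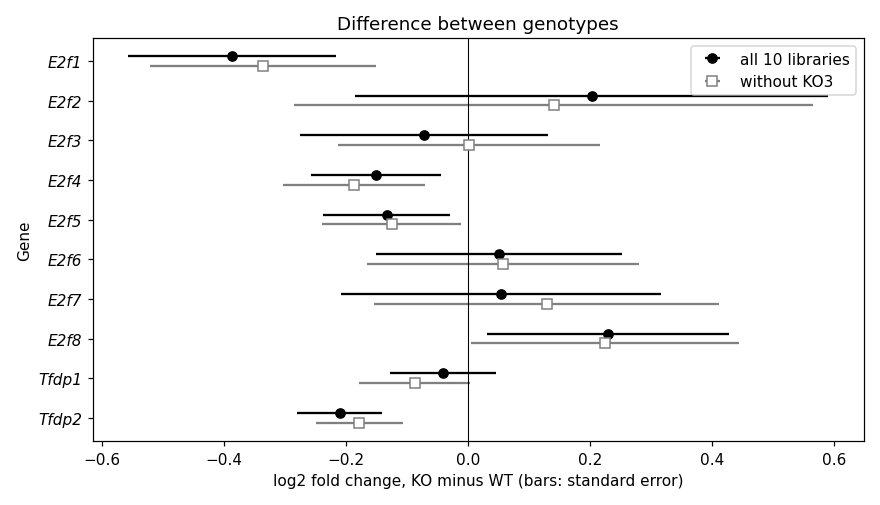
Log2 fold change of KO against WT for each member with its standard error, from all 10 libraries (filled) and without the library labelled KO3 (open squares). All 10 values lie between -0.39 and 0.23, and 4 of them are above 0.

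Across the members 4 of 10 log2 fold changes were positive and the median was -0.06, against 0.0065 over all tested genes. The activators had 1 positive value of 3, the repressors 3 of 5 and the DP partners 0 of 2. To set the classes against each other within a library, the summed CPM per kilobase of *E2f1*, *E2f2* and *E2f3* was divided by that of *E2f4* to *E2f8*. The ratio was 0.262, 0.205, 0.256, 0.234 and 0.274 in WT1 to WT5 and 0.182, 0.198, 0.184, 0.202 and 0.307 in KO1 to KO5. In this version of the ratio KO1 to KO4 were all below the lowest WT library and KO5 was above the highest, so that the position of the KO group rested on 1 library. The means were 0.246 ± 0.0272 and 0.215 ± 0.0525 (SD, n = 5 each), and the difference of the log2 ratios was -0.22, smaller than the SD of 0.25 among libraries. Without KO5 it was -0.36, larger than the SD of 0.13 among the remaining libraries, and without the library labelled KO3 it was -0.17. Against the atypical *E2f7* and *E2f8* alone the ratio was 1.88 ± 0.412 in WT and 1.42 ± 0.249 in KO (SD, n = 5 each), with overlapping libraries and a log2 difference of -0.40 beside an SD of 0.29. With plain CPM in place of CPM per kilobase, KO1 to KO4 (0.284 to 0.314) lay within the WT range of 0.283 to 0.433. Against *E2f4*, *E2f5* and *E2f6* alone KO4 (0.249) lay within the WT range of 0.239 to 0.311, with KO1, KO2 and KO3 below it. The log2 difference was -0.19 in both versions, beside an SD of 0.28. The activator sum was 22.8, 24.6, 24.3, 30.2 and 39.3 CPM per kilobase in KO1 to KO5, against 29.5 to 38.1 in WT. The repressor sum was 124 to 149 in KO and 113 to 153 CPM per kilobase in WT, so the KO libraries of both sums overlapped those of WT.

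**Figure D4:**
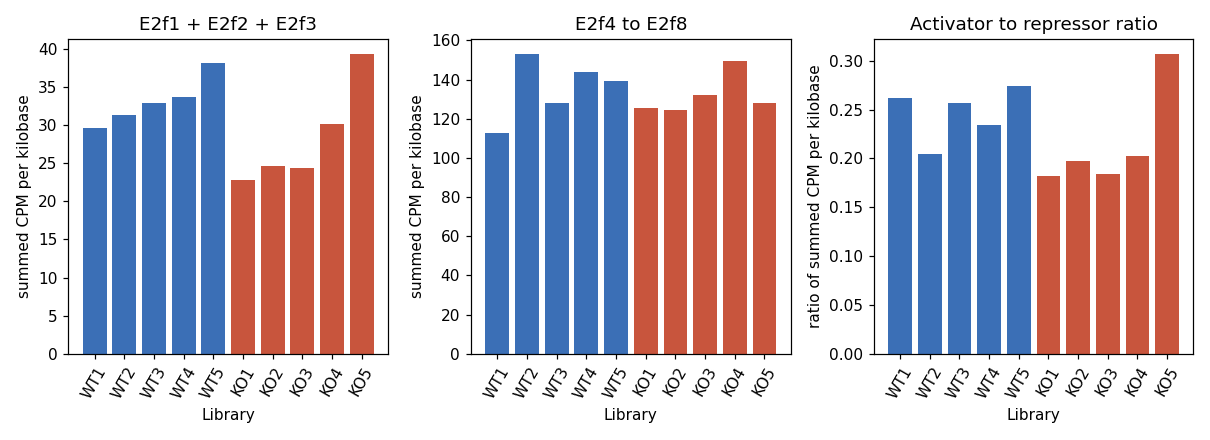
Summed CPM per kilobase of the activators (*E2f1* to *E2f3*) and the repressors (*E2f4* to *E2f8*) and their ratio, 1 bar per library, WT in blue and KO in red, axes from 0. The ratio is lowest in KO1 to KO4 (0.182 to 0.202) and highest in KO5 (0.307).

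The libraries differ in how much mitotic RNA they hold, and the members were next set against this. The proliferation score of a library was the mean deviation in log2 CPM of 34 mitotic genes, none of them a member. It was -0.17, -0.01, -0.13, -0.02 and 0.08 in WT1 to WT5 and -0.23, 0.12, 0.12, 0.18 and 0.06 in KO1 to KO5. KO1 was the lowest library, KO2 to KO4 were the highest and the genotypes overlapped. The score is a level of RNA and not a share of cycling cells. The study measured the cell cycle by staining and reported unchanged quiescence and a lower share of actively cycling HSCs in Cited2 CKO mice. The mitotic genes themselves had 22 of 34 positive log2 fold changes with a median of 0.13. By edgeR 0 were called and 6 had an unadjusted p under 0.05, against 12.9% of all tested genes, and 1 was called by DESeq2. *Ccnb1*, which encodes the mitotic cyclin B1, was the gene that DESeq2 called, at 0.45 (standard error 0.10, adjusted p = 0.0781 in edgeR and 0.00423 in DESeq2) and no overlap between the genotypes. *Cenpf* and *Bub1*, of the kinetochore, had 0.50 and 0.38 (adjusted p = 0.336 and 0.178).

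The slope of each gene on the score was fitted across the 10 libraries with genotype in the model (the same edgeR test, log2 change per SD of the score, where 1 SD is 0.136). No slope of any gene had an adjusted p under 0.05 (0% of 14131 genes outside the score in either direction), while 295 positive and 173 negative slopes, 3.31% in all, had an unadjusted p under 0.05. DESeq2 called 4 slopes, none of a member. *E2f2* had the steepest slope of the members, 0.46 (standard error 0.22), followed by *E2f7* with 0.34 (standard error 0.14), the single member at an unadjusted p under 0.05. *E2f1* (0.14), *E2f6* (0.14), *Tfdp1* (0.09), *E2f8* (0.08), *E2f4* (0.07), *Tfdp2* (0.03), *E2f3* (0.03) and *E2f5* (0.01) were less steep, and all 10 members had adjusted p = 0.9998. All 10 slopes were above 0, with a median of 0.0877, whereas 49.5% of all tested genes had a positive slope.

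Several of these slopes depended on the libraries at the low end of the score. In a fit on fewer libraries the score was divided by its SD over those libraries. The slopes of such fits are per that SD, so their sizes are not in the unit of those above. Without KO1 and WT1, the 2 libraries whose scores lay farthest from the median and were the lowest, the slope of *E2f2* was -0.05 and that of *E2f7* 0.10, and those of *E2f1* (-0.01), *E2f3* (-0.007575) and *E2f8* (-0.13) were below 0. The slope of *E2f7* was 0.27 within the WT libraries and 0.34 within the KO libraries, and that of *E2f2* 0.24 and 0.60. Without the library labelled KO3 they were 0.40 and 0.48. For *E2f8* the slope was -0.25 within WT and 0.26 within KO, a difference that was not tested. *Tfdp1* and *E2f4* had slopes of -0.0034 and 0.05 within WT and 0.15 and 0.09 within KO. The SD of the scores given above was 0.0984 within WT and 0.16 within KO. The slopes within WT and within KO thus differ in unit, and their sizes cannot be set against each other.

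**Figure D5:**
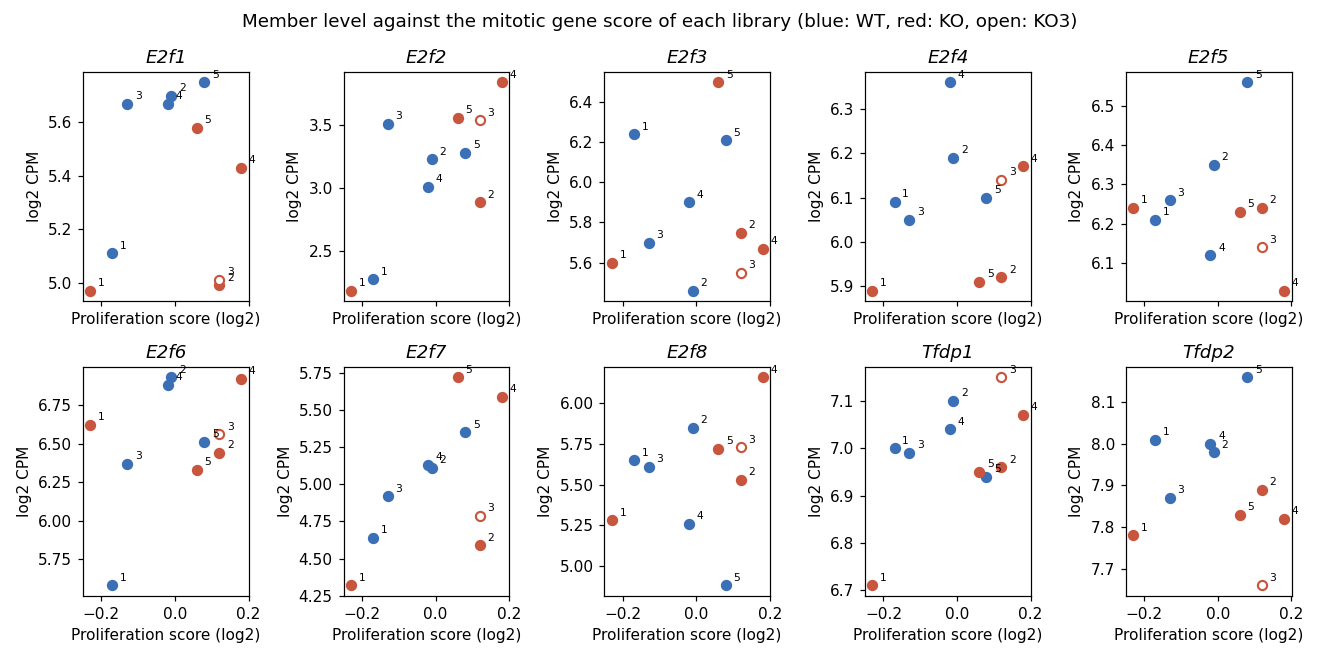
Log2 CPM of each member against the proliferation score of the library (mean log2 deviation of 34 mitotic genes), 1 panel per gene, WT in blue and KO in red, the library labelled KO3 open, library numbers beside the points. For *E2f2* the libraries with the lowest scores, KO1 and WT1, are also the lowest points, and for *E2f7* KO1 is the lowest.

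At equal proliferation, with the score in the model, 0.113% of all tested genes differed between the genotypes and 0 of the 10 members did, with 2 members, *E2f1* and *Tfdp2*, at an unadjusted p under 0.05, as had 10.9% of all genes tested. The log2 fold change of *E2f1* was then -0.49 (standard error 0.18, adjusted p = 0.329) and that of *Tfdp2* -0.23 (standard error 0.08, adjusted p = 0.281). *E2f2* and *E2f7*, the members with the steepest slopes, went from 0.20 to -0.21 and from 0.05 to -0.21, and *E2f8* had 0.15. Of the 10 members 9 then had negative values, 3 of 3 activators, 4 of 5 repressors and 2 of 2 DP partners, against 50.4% of all tested genes. The score was higher in KO on the mean, so in this model a positive slope lowers the fold change. These signs are therefore not separate from the positive slopes of all 10 members, several of which depended on KO1 and WT1.

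Over the 10 libraries some members varied together, given here as Pearson's r of log2 CPM. *E2f7* had r = 0.76 with *E2f2* and 0.72 with *E2f1*, *E2f4* had 0.67 with *Tfdp1*, *E2f5* had 0.65 with *Tfdp2*, and *E2f2* had 0.62 with *Tfdp1*. *E2f5* with *E2f8* (-0.65) and *E2f3* with *E2f6* (-0.58) went opposite ways. The points share their library, its depth and its genotype. Genes outside the family whose mean log2 CPM reached 3 were ranked by r to each member. Over 10 libraries the highest r among many genes is high by selection, and no link was tested. The 3 genes most like *E2f2* were *Neil3*, *Cyp27a1* and *Snora81* (0.94, 0.93 and 0.93). For *Tfdp1* they were *Rfc5*, *Srsf11* and *Lin54* (0.96, 0.955 and 0.95), and for *E2f8* *Usp14*, *Hltf* and *Rpp40* (0.91, 0.91 and 0.91). For *E2f1* they were *Gtf2ird1*, *Fkbp8* and *Fbxw5* (0.97, 0.94 and 0.92), for *E2f3* *Txndc17*, *Phf5a* and *Amacr* (0.97, 0.91 and 0.88), and for *E2f7* *Zer1*, *Gm16861* and *Serhl* (0.91, 0.88 and 0.88). *Samm50* (0.94) was the gene most like *E2f4*, *Lancl1* (0.94) like *E2f5*, *Smim1* (0.95) like *E2f6* and *Btd* (0.96) like *Tfdp2*.

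Upstream of the E2F proteins, the pocket proteins bind and silence them. None of the 3 was called. *Rb1*, which holds the activators, and *Rbl2*, which encodes p130, had log2 fold changes of -0.21 and -0.17 (adjusted p = 0.534 and 0.333), and *Rbl1*, which encodes p107, had 0.19 (adjusted p = 0.624). Of the 8 G1 cyclins and kinases, which inactivate the pocket proteins, 1 was called higher and none lower. This was *Ccnd1*, encoding cyclin D1, with 75.9, 70.7, 58.8, 80.9 and 61.05 CPM in WT1 to WT5 and 94.8, 100.2, 104, 140.2 and 122 CPM in KO1 to KO5. All KO libraries lay above all WT libraries, and the log2 fold change was 0.69 (standard error 0.13, adjusted p = 0.0456). The adjusted p was above 0.05 when any of the 10 libraries was left out (0.0522 without the library labelled KO3), with the GC offset (0.0714) and without both libraries numbered 5 (0.159), with log2 fold changes from 0.59 to 0.75 over all alternatives. It stayed under 0.05 in DESeq2 (0.000346), with the size factors of DESeq2 (0.0414), without the filter on low counts (0.0396), with at least 10 counts in every library (0.0217) and with the number of detected genes as a covariate (0.0219). At equal proliferation *Ccnd1* was not called, with a log2 fold change of 0.62 (adjusted p = 0.147 in edgeR). *Ccnd3* and *Cdk4* had -0.20 and -0.10 (adjusted p = 0.34 and 0.655), the former turning to 0.01 with the GC offset.

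Of 5 CDK inhibitors none was called by edgeR and 1, *Cdkn1c*, by DESeq2, and 1 had a positive log2 fold change. *Cdkn1c*, which encodes p57, an inhibitor associated with HSC quiescence, had 63.2, 52.5, 53.5, 54.4 and 62.6 CPM in WT1 to WT5 and 42.3, 33.4, 39.95, 41.7 and 49.3 CPM in KO1 to KO5. All KO libraries lay below all WT libraries, while its log2 fold change of -0.47 (standard error 0.13) had adjusted p = 0.147 in edgeR and 0.0439 in DESeq2, and was -0.23 with the GC offset. *Cdkn1b* and *Cdkn2c* had -0.28 and -0.21 (adjusted p = 0.579 and 0.709).

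Of the partners of the repressors, none of 8 MuvB and partner genes and none of 12 genes of the E2F6 Polycomb complex was called, with median log2 fold changes of -0.05 and 0.0055. *Lin52*, a MuvB subunit, had 0.33 (adjusted p = 0.329), and *L3mbtl2*, of the E2F6 complex, had -0.34 (adjusted p = 0.231). Of the 42 G1/S targets of E2F none was called by edgeR and 1, *Dbf4*, by DESeq2. An unadjusted p under 0.05 in edgeR was reached by 7, against 12.9% of all tested genes. A positive log2 fold change was found for 21, with a median of 0.00073, against a median of 0.0065 over all tested genes. *Dbf4*, the activating subunit of the kinase that fires replication origins, had 0.47 (adjusted p = 0.152 in edgeR and 0.0429 in DESeq2) and no overlap between the genotypes, the histone chaperone *Nasp* had 0.31 (adjusted p = 0.206) and *Gins1*, of the replicative helicase, had 0.44 (adjusted p = 0.293).

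On the proliferation score 36 of the 42 G1/S targets had a positive slope, against 49.5% of all tested genes. None was past the adjusted threshold in edgeR, and their median was 0.06. *Rrm2*, a subunit of ribonucleotide reductase, and *Tk1*, thymidine kinase, were among the 3 with the smallest p in the slope test, with slopes of 0.22 (standard error 0.06) and 0.24 (standard error 0.09). *Lin54* and *Mybl2* of the MuvB list had slopes of 0.21 and 0.31, and *Cdkn1a*, encoding p21, had 0.33, none past the adjusted threshold. Among the members the slopes of *E2f2* (0.46) and *E2f7* (0.34) were above these values, with standard errors of 0.22 and 0.14, and the differences between slopes were not tested.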

How the data were processed

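RNA of LSK CD48-CD150+ HSCs was sequenced from 5 Cited2 CTL and 5 Cited2 CKO mice, grouped by genotype from the labels. Single-ended reads had been aligned by the authors to GRCm38 (mm10) with HISAT2 v.2.1.0 and counted with Rsubread v.2.0.1, and raw counts per gene symbol were deposited beside a gene length in bases. The annotation and the use of strand and of multi-mapping reads are not given in the sources used here.

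The fits used edgeR 4.0.16 in R 4.3.3 over all genes (filterByExpr, TMM, robust quasi-likelihood F test, Benjamini-Hochberg adjustment). Genes were called at an adjusted p under 0.05 and, for genotype, a fold change above 20%, the thresholds of the study. Slopes were fitted with genotype and the proliferation score in the model, the score divided by its SD over the libraries of the fit. Biological variation between libraries had a common coefficient of 25.3%, and a prior count of 2 entered log2 CPM. Alternatives were DESeq2 1.42.0, its size factors in edgeR, no filter, at least 10 counts in every library, an adjusted p of 0.01, an offset for GC content and length (loess, span 50%), the replicate number as a block, other scores, each genotype alone, and each library left out. Leaving out both libraries numbered 5 and the number of detected genes as a covariate were chosen after seeing the data. Promoter windows came from RefSeq, and gene positions and exon overlaps from GENCODE, both of GRCm38. The genotype fit and the slope fit of edgeR were tested on simulated data with known changes. Of 100 genes changed by 0.5 on the log2 scale 32 were called, and of 100 changed by 1 there were 69. Of 100 slopes of 0.25 per SD 18 were called, and of 100 slopes of 0.5 there were 64. Each fit made 5 false calls. Most changes of the smaller sizes thus went uncalled, and a member without a call may still differ by such an amount.

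Members and gene lists were chosen with earlier results of these data known. Genes were named by rule: *Cited2*, the members, per list the 3 genes with the smallest p in either test, and the 3 genes most like each member. *Mpo*, *Elane*, *Ctsg*, *Prtn3*, *Lyz2*, *Xist* and *Cd48* and the genes that share exon bases with a member were named after their values were seen. A gene that the rule names is not reported here. Protein sequences were not analysed here.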

Additional observations from a re-analysis of the deposited data

Results flagged for a closer look

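In 26 groups of 5 libraries (the members, the ratio, the score and *Cited2* in each genotype) 4 held a library whose gap to its neighbour exceeded Dixon's critical value, where chance gives about 1 in 20 groups. The groups share libraries and the ratio contains *E2f3*, so they are not independent. Whether 4 exceeds chance was not tested. *E2f1* in WT1, 34.1 CPM, lay below the other WT libraries, of which the next was at 50.3 CPM. *Cited2* in the library labelled KO3, 120.1 CPM, lay above the other KO libraries, of which the next was at 8.30 CPM. *E2f3* in KO5, 89.9 CPM, lay above the other KO libraries, of which the next was at 53.2 CPM. The ratio of activators to repressors in KO5, 0.307, lay above the other KO libraries, of which the next was at 0.202.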

How the results depend on the processing

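No member was called under any alternative run, in the genotype comparison, in the slopes or at equal proliferation. Of 570 alternative values of the members 516 kept their direction and their side of the threshold and 54 reversed, none of them past the threshold. Over all genes, the 32 genotype calls became 341 in DESeq2, 9 with the GC content and length offset, 13 with the offset and the replicate block, 8 at an adjusted p of 0.01, 16 without both libraries numbered 5, and 8 to 42 with each library left out, with the 8 without KO2 and the 42 without the library labelled KO3. The 16 calls at equal proliferation became 0 to 34 with each library left out, with the 34 again without the library labelled KO3. The slopes called went from 0 to 4 in DESeq2.

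Genotype differences reversed for *E2f4* with the offset (log2 fold change 0.042, and 0.039 with the replicate block) and for *Ccnd3* (0.014, and 0.010 with the replicate block). That of *E2f7* was -0.017 with the replicate block, -0.035 with block and offset and -0.077 without both libraries numbered 5. With each library left out it ranged from -0.16 to 0.20 for *E2f7*, from -0.30 to 0.0084 for *E2f3*, from -0.12 to 0.17 for *E2f6* and from -0.088 to 0.015 for *Tfdp1*. At equal proliferation the ranges were -0.31 to 0.058 for *E2f2*, -0.31 to 0.16 for *E2f3*, -0.63 to 0.091 for *E2f6* and -0.098 to 0.56 for *E2f8*.

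Slopes reversed as follows, where each slope is per SD of its own score over the libraries of its fit. Sizes can thus differ in unit between fits. With the replicate block *E2f1* had -0.20 and *E2f6* -0.24, and with block and offset *E2f1* had -0.13, *E2f6* -0.21, *E2f4* -0.043 and *E2f5* -0.032. With the offset alone *E2f4* had -0.015. With the score from G1/S targets *E2f3*, *E2f5* and *Tfdp2* had -0.025, -0.037 and -0.024, from summed CPM *E2f3* had -0.021, and from *Mki67* alone *E2f3*, *E2f7*, *E2f8* and *Rbl1* had -0.13, -0.037, -0.15 and -0.0021. Within WT *E2f3*, *E2f8* and *Tfdp1* had -0.019, -0.25 and -0.0034, and within KO *E2f5* had -0.052. Without KO1 and WT1 *E2f1*, *E2f2*, *E2f3* and *E2f8* had -0.013, -0.045, -0.007575 and -0.13. Without both libraries numbered 5 *E2f3* and *E2f5* had -0.045 and -0.034, without genotype in the model *E2f5* and *Tfdp2* had -0.0141 and -0.0143, and with the number of detected genes *E2f3* had -0.013. With each library left out the slope ranged from -0.13 to 0.093 for *E2f3*, from -0.035 to 0.084 for *E2f5* and from -0.16 to 0.20 for *E2f8*. The cause was not tested for these reversals.

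Libraries of both genotypes carry numbers from 1 to 5, but same-numbered libraries correlated at -0.095 to 0.208 in their deviations from the group means, above 0.1 in 2 of 5 pairs, and 3 of 10 libraries correlated best with their own number, so the numbers were not taken as pairs. With the replicate block the genotype calls were 24, *Ccnd1* had adjusted p = 0.0668, and the slopes of *E2f2* and *E2f7* were 0.11 and 0.02. Depth limits *E2f2* most, with 13 to 49 counts per library.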

Other observations

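The summed CPM of *Tfdp1* and *Tfdp2* was 359.8 to 408 in WT and 323.5 to 360.2 in KO libraries, with a narrow overlap. The G1/S targets of E2F spread more widely in KO, with sums of 5543 to 7174 CPM against 6190 to 6490 CPM in WT, as did the 12 genes of the E2F6 Polycomb complex, with 1303 to 1613 against 1428 to 1467 CPM. These differences in spread were not tested.

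Markers of other cells had these summed levels. The 12 myeloid markers ranged from 414 to 935 CPM in WT and from 416 to 690 CPM in KO libraries, and the 8 megakaryocyte markers from 664 to 827 and from 610 to 930 CPM. The 9 erythroid markers found in the table ranged from 51.5 to 123 and from 50.1 to 71.4 CPM. The 7 B cell markers, of which 4 were at 0 in some library, ranged from 52.03 to 93.4 and from 57.6 to 79.2 CPM, and the 8 T and NK cell markers, of which 6 were at 0 in some library, from 98.7 to 131 and from 123 to 159 CPM.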
